A study of Mus musculus with 6 samples.

Results

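A set of 10 genes of arginine, nitric oxide and polyamine metabolism was followed in mouse peritoneal macrophages: Nos2, Arg1, Arg2, Ass1, Asl, Odc1, Gch1, Slc7a1, Slc7a2 and Oat. They were chosen by name, as the probes that the platform annotation assigns to 1 gene symbol, averaged per gene. This gave 9 of the 10 genes, out of 19935 genes on the arrays. The gene Ass1 had only probes that are shared with a second symbol, and it stays outside the counts. The study asked for genes raised in TLR3-activated cells and lowered in TLR2-activated ones. The macrophages, phagocytes of the abdominal cavity, came from the inbred mouse strain C57BL/6 and were cultured in DMEM with serum. In 2 samples the cells received 2 ug/mL of poly I:C for 24 h, a man-made double-stranded RNA recognised by the Toll-like receptor TLR3. In 2 others they received 1 ug/mL of PAM for 24 h, a lipopeptide recognised by TLR2. The labels name that compound PAMCSK3 for replicate 1 and PAMCSK4 for replicate 2. The 2 control samples were left without ligand, and the labels give no time for them. In comparisons with control cells, ligand and time in culture therefore cannot be told apart. The labels do not state whether replicates are different mice or different dishes, and p-values therefore cover only the scatter of these samples, which could be purely technical.

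Macrophages use arginine in competing ways. The inducible nitric oxide synthase, encoded by Nos2, turns it into nitric oxide and citrulline with tetrahydrobiopterin as a cofactor, whereas arginases turn it into urea and ornithine, from which polyamines and proline are made. In mouse macrophages the balance between nitric oxide synthase and arginase is a classical way to tell inflammatory from alternative activation.

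All values are log2 values as deposited, in which the median of each probe over the 6 arrays had been set to 0. A value of 0 is thus the middle of the 6 arrays for that gene, and it carries no signal level, so genes can be compared by their differences only and whether a probe rose above background is unknown. A difference is the mean of the first group minus that of the second, given with its standard error from limma (n = 2 arrays per group) and a p-value adjusted over all 19935 genes, with a threshold of 0.05. Folds assume that the deposited logarithms have base 2.

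Array medians lay between -0.0049 and 0.0072. Of 10 macrophage markers 3 rose and 4 fell with poly I:C, and 3 rose and 4 fell with PAM. That is 70% with each ligand, beside 30.4% and 25.0% of all genes. The genes were not the same with both. Adgre1 (-0.97 and 1.38) and Cd14 (-1.28 and 2.39) fell with poly I:C and rose with PAM. Fcgr1 (2.65 and -1.72) and Mertk (0.22 and -1.23) did the reverse, whereas Itgam and Gata6 fell with both. Among markers of other cells, 2 of 8 neutrophil markers rose with PAM, S100a8 by 2.04 and Camp by 0.64, and 1 fell, Padi4 (-0.58). Of 4 B cell markers 2 rose with each ligand, Cd79b by 0.36 with poly I:C and by 0.62 with PAM and Ms4a1 by 0.44 and 0.51. Of 6 mesothelial and fibroblast markers 3 fell with poly I:C and 1 with PAM, and of 4 eosinophil markers 1, Siglecf, fell with each. By limma no marker of dendritic cells (5), T and NK cells (6) or mast cells (5) passed with either ligand, with 0, 0 and 1 at an unadjusted p under 0.05 in each comparison with control cells, and no neutrophil marker passed with poly I:C (1 at an unadjusted p under 0.05). The part of these shifts in the results for arginine genes was not tested. Since the values hold no level, the presence of a marker could not be read from them. In these bulk samples, fewer cells of a type and less RNA per cell cannot be told apart.

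With poly I:C 6 of the 9 genes rose and 1 fell, against 30.4% of all genes past the threshold (12.1% higher and 18.2% lower). The genes that rose were Nos2, Slc7a2, Gch1, Slc7a1, Arg2 and Odc1, and the gene that fell was Oat. The median difference of the 9 genes was 0.42, beside 0.0081 over all genes tested. With PAM 6 of the 9 rose and 3 did not pass, against 25.0% of all genes past the threshold (11.0% higher and 14.0% lower). The 6 that rose were Slc7a2, Arg2, Gch1, Arg1, Nos2 and Slc7a1, and the median of the 9 was 1.14, beside -0.0015 over all genes. Both comparisons use the same 2 control arrays. The genes were chosen with earlier results of these data known, so counts and medians set beside all genes are a description and no test. In the direct test of poly I:C against PAM, which leaves out the control means, 2 of the 9 were higher and 5 lower, against 12.9% higher and 15.8% lower among all genes (28.7% in either direction).

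Changes of at least 2-fold past the threshold were fewer. With poly I:C these were 3 genes higher, Nos2, Slc7a2 and Gch1, and 1 lower, Oat, whereas 2.77% of all genes were higher and 2.05% lower by that measure. With PAM they were 5 genes higher, Slc7a2, Arg2, Gch1, Arg1 and Nos2, whereas 2.27% of all genes were higher and 1.94% lower. Between the ligands Nos2 was higher with poly I:C by that measure and Arg2, Slc7a2 and Arg1 were lower, beside 2.59% and 2.38% of all genes.

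**Figure D1:**
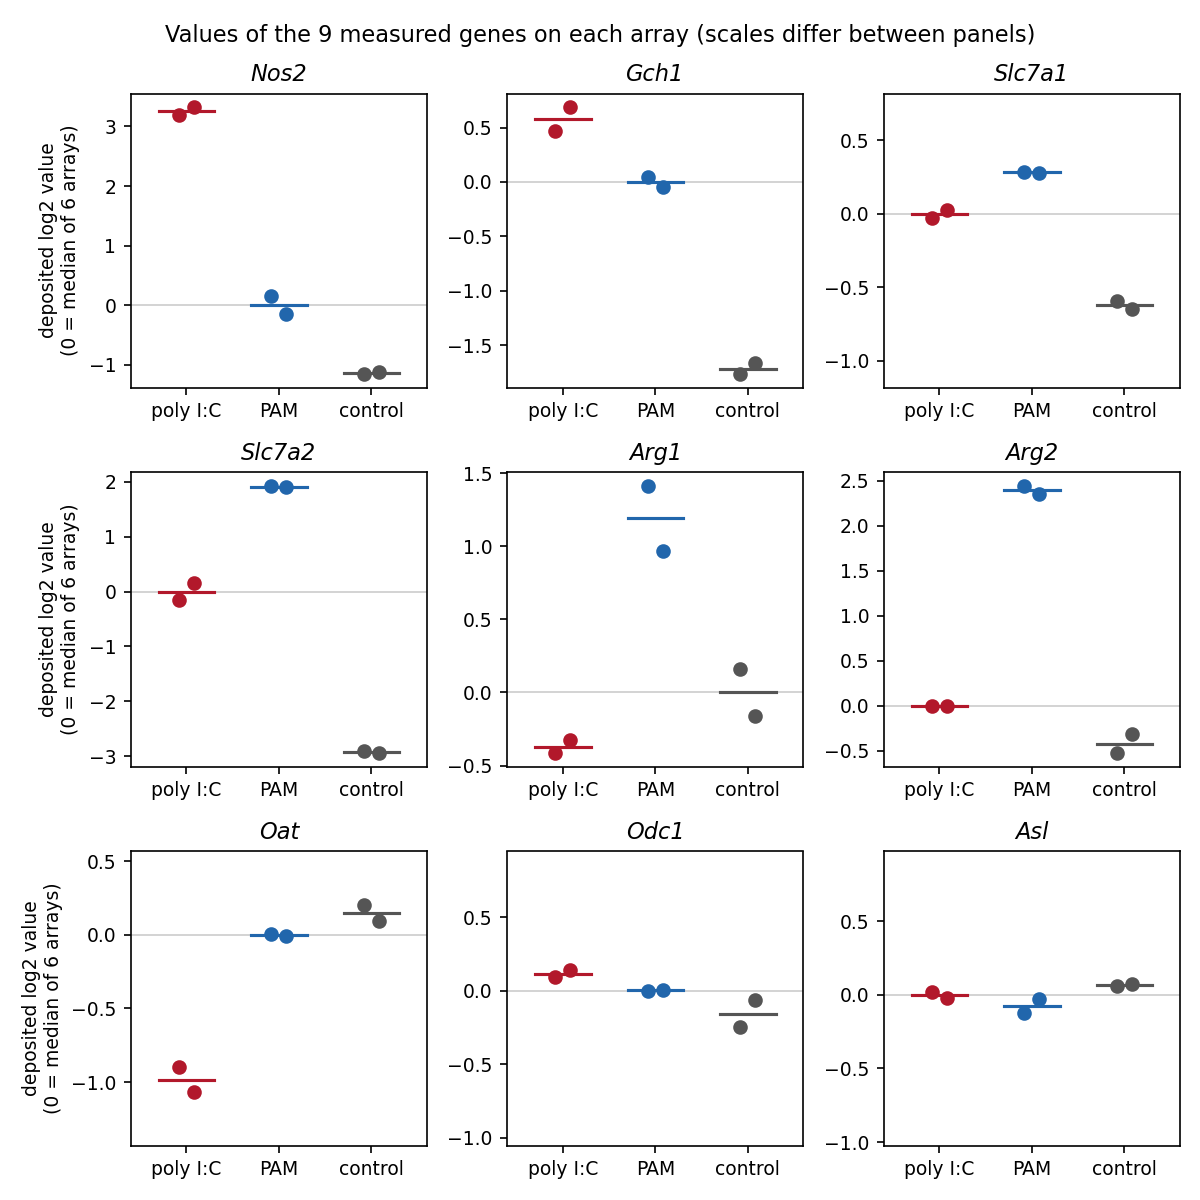
Deposited log2 value (y axis, 0 is the median of the 6 arrays) of the 9 measured genes on each array of the poly I:C, PAM and control groups; points are arrays, lines are group means, and y scales differ between panels. Nos2 stood highest with poly I:C (3.19 and 3.33), whereas Arg1, Arg2, Slc7a1 and Slc7a2 stood highest with PAM.

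The nitric oxide synthase gene Nos2 (probe 10379228) had values of 3.19 and 3.33 with poly I:C, 0.15 and -0.15 with PAM, and -1.16 and -1.13 in control cells. The 3 groups did not overlap, and poly I:C lay far above both others. Nos2 rose by 4.40 ± 0.10 with poly I:C, which is 21.2-fold (adjusted p = 5.28e-09), the 41st largest increase among the 19935 genes. With PAM it rose by 1.14 ± 0.10, or 2.21-fold (adjusted p = 3.07e-05), at place 389. The difference between the ligands was 3.26 ± 0.10, which put poly I:C 9.59-fold above PAM (adjusted p = 3.23e-08). The other nitric oxide synthase genes, the neuronal Nos1 and the endothelial Nos3, did not pass. Nos1 differed by 0.02 with poly I:C (95% interval -0.13 to 0.17) and by -0.08 with PAM (-0.23 to 0.07). For Nos3 the differences were 0.12 (-0.07 to 0.30) and 0.0053 (-0.18 to 0.19).

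The 3 genes with the pattern nearest to Nos2, by Euclidean distance over the 6 array values, were Enpp4 (distance 0.41), Ddx60 (0.69) and Scimp (0.70). They differed from control cells by 4.11, 4.07 and 3.73 with poly I:C and by 0.89, 1.26 and 0.81 with PAM. This is a description over 6 arrays in 3 groups and was not tested.

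Gch1 (probe 10419288) encodes GTP cyclohydrolase, the first enzyme of tetrahydrobiopterin synthesis. Its values were 0.46 and 0.69 with poly I:C, 0.05 and -0.05 with PAM, and -1.77 and -1.66 in control cells. Both treated groups lay well above the control arrays, with poly I:C the higher of the 2. Gch1 rose by 2.29 ± 0.09 with poly I:C, 4.89-fold (adjusted p = 1.26e-07), and by 1.71 ± 0.09 with PAM, 3.28-fold (adjusted p = 1.09e-06). The ligands differed by 0.58 ± 0.09 (adjusted p = 0.000984). Nearest to Gch1 in pattern were the chemokine gene Ccl2 (distance 0.31), Flrt3 (0.34) and the glucose transporter gene Slc2a6 (0.47).

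Promoters could be matched in RefSeq (build GRCm38.p6) for 5 of the 10 genes, Ass1, Odc1, Gch1, Slc7a1 and Oat. The 250 bases before each start were searched on both strands for 9 motifs. A strict and a looser NF-kB pattern, the first contained in the second, and an ISRE pattern were among them. The STAT motif was TTCNNNGAA and the C/EBP motif TTNNGNAA, while the ATF4/CHOP motif was TGATGNAA. For AP-1 the letters were TGANTCA. The E-box was searched as CACGTG. As the TATA box, the letters TATAAA were taken. Beyond the NF-kB pair, none of these patterns contains another. The promoters of Gch1, Slc7a1 and Oat are shown because Gch1 and Slc7a1 rose with both ligands and Oat fell with poly I:C; they were chosen after their values were seen. Capitals mark matches and the sequences run 5′ to 3′ on the coding strand, which is the minus strand for all 3.
Gch1, chr14:47189414-47189663: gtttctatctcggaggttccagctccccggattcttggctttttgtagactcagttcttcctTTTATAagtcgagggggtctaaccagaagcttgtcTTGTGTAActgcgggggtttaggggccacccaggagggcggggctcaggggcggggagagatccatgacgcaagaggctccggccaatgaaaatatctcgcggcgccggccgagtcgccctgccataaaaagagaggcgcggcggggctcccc
Slc7a1, chr5:148399905-148400154: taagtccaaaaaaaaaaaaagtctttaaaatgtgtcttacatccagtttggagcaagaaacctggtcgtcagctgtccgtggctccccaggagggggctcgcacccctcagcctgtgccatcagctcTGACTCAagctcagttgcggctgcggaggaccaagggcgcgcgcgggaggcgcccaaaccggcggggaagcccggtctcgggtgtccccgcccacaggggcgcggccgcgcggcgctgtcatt
Oat, chr7:132576399-132576648: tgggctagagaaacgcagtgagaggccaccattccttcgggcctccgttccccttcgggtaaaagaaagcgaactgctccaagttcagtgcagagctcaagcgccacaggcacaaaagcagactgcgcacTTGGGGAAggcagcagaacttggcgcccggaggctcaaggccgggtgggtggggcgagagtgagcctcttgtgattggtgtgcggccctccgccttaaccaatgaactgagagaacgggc

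In the Gch1 window the capitals are TATAAA on the opposite strand at -188 to -183 and a C/EBP match at -153 to -146, counted back from the start. The Slc7a1 window holds an AP-1 match at -123 to -117, and that of Oat holds a C/EBP match at -120 to -113. Among all 32851 promoter windows, 12.4% hold TATAAA, 36.8% the C/EBP letters and 6.75% the AP-1 letters. A second annotated Slc7a1 start had matches to the STAT, C/EBP and TATA box letters, and the Ass1 window had CACGTG, which 7.02%, 36.8%, 12.4% and 6.02% of windows hold. Neither NF-kB pattern, held by 0.14% and 1.41% of windows, was in the windows of the 5 genes. The ISRE and ATF4/CHOP patterns, held by 2.98% and 3.45% of windows, were absent from them too. The Odc1 window held none of the 9 motifs. Nos2, Arg1, Arg2, Asl and Slc7a2 had no promoter to search. A match is a description of the sequence and no evidence of binding.

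Arginine enters macrophages mainly through cationic amino acid transporters, among them CAT-1 and CAT-2, the products of Slc7a1 and Slc7a2. Slc7a2 (probe 10571444) had values of -0.16 and 0.16 with poly I:C, 1.92 and 1.90 with PAM, and -2.90 and -2.95 in control cells. The groups were far apart, with PAM highest and control cells lowest. Slc7a2 rose by 2.92 ± 0.10 with poly I:C, 7.58-fold (adjusted p = 5.35e-08). With PAM it rose by 4.83 ± 0.10, 28.5-fold (adjusted p = 4.84e-09), the 18th largest increase of all genes with that ligand and the largest among the 9 genes. Poly I:C stood below PAM by 3.76-fold (-1.91 ± 0.10, adjusted p = 8.20e-07).

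Slc7a1 (probe 10535852) moved the same way by smaller amounts. Its values were -0.03 and 0.03 with poly I:C, 0.28 and 0.28 with PAM, and -0.59 and -0.65 in control cells. It rose by 0.62 ± 0.06 with poly I:C (adjusted p = 7.74e-05) and by 0.90 ± 0.06 with PAM (adjusted p = 8.06e-06). The difference of Slc7a2 exceeded that of Slc7a1 by 2.30 with poly I:C and by 3.93 with PAM, gaps that were not tested. Between the ligands Slc7a1 differed by -0.28 ± 0.06 (adjusted p = 0.00922), a call that ended without poly I:C replicate 1 (adjusted p = 0.0676), PAM replicate 1 (0.0600) or PAM replicate 2 (0.0554).

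Both arginase genes rose with PAM. Arg1 (probe 10368343), which encodes the cytosolic arginase, had values of -0.42 and -0.32 with poly I:C, 1.41 and 0.97 with PAM, and 0.16 and -0.16 in control cells. Its PAM arrays lay above all others, and its poly I:C arrays lay below both control arrays by less than the PAM arrays lay above them. Arg1 rose by 1.19 ± 0.15 with PAM, 2.28-fold (adjusted p = 0.000307). With poly I:C the difference was -0.37 ± 0.15 (95% interval -0.71 to -0.03) and did not pass (adjusted p = 0.0967). Some other fits did call it, among them that with only the 4 arrays compared (adjusted p = 0.0363). Leaving out either PAM replicate gave the same numbers as that fit and is no separate check. Without control replicate 2 the difference was -0.53. It stood at -0.21 without control replicate 1. Over all alternatives that adjusted p ran from 0.0256 to 0.339. Between the ligands Arg1 was lower with poly I:C by 2.95-fold (-1.56 ± 0.15, adjusted p = 4.30e-05).

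Arg2 (probe 10396831), the gene of the mitochondrial arginase, had values of 0.0033 and -0.0033 with poly I:C, 2.44 and 2.35 with PAM, and -0.53 and -0.31 in control cells. The PAM arrays stood clear of the rest, and the poly I:C arrays lay a little above the control arrays. Arg2 rose by 0.42 ± 0.08 with poly I:C, 1.34-fold (adjusted p = 0.00438), and by 2.82 ± 0.08 with PAM, 7.04-fold (adjusted p = 3.26e-08), at place 87 among the increases with PAM. For Arg2, poly I:C stood 5.27-fold below PAM (-2.40 ± 0.08, adjusted p = 7.37e-08), the lowest value of the 9 genes in that comparison.

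Set side by side, Nos2 and Arg1 differed from control cells by 4.40 and -0.37 with poly I:C, a gap of 4.78 between their changes. With PAM they differed by 1.14 and 1.19, a gap of -0.05, and these gaps were not tested. Nearest to Arg1 in pattern were Palld (distance 0.25), Adam19 (0.40) and Abhd17c (0.40). Nearest to Arg2 were Prg4 (0.30), the inflammasome sensor gene Nlrp3 (0.30) and Dst (0.50).

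**Figure D2:**
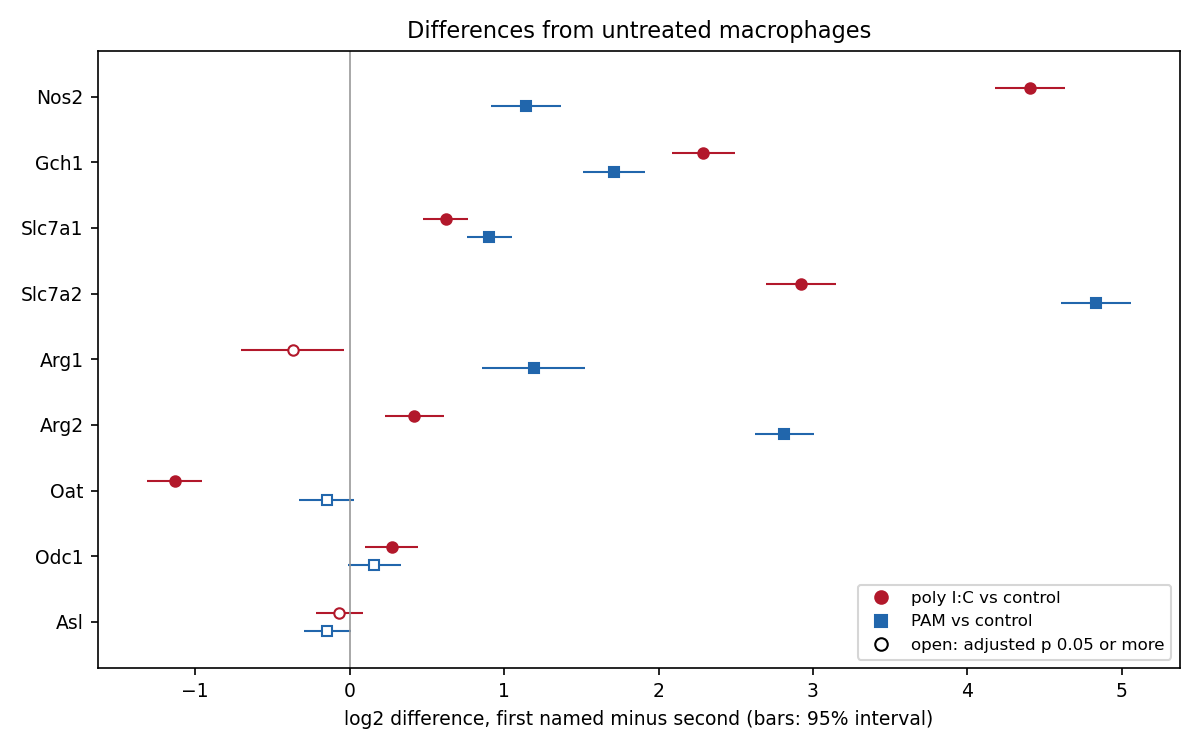
Log2 difference from control cells (x axis, with 95% intervals) of the 9 genes for poly I:C (red circles) and PAM (blue squares); open symbols did not pass the threshold. Nos2 lies at 4.40 with poly I:C and 1.14 with PAM, Slc7a2 at 2.92 and 4.83, and Arg2 at 0.42 and 2.82.

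Citrulline made by nitric oxide synthase is returned to arginine by argininosuccinate synthase and argininosuccinate lyase, the products of Ass1 and Asl. Asl (probe 10534120) had values of 0.02 and -0.02 with poly I:C, -0.12 and -0.03 with PAM, and 0.06 and 0.07 in control cells. These values span a narrow range, and no comparison passed. The differences were -0.07 with poly I:C (95% interval -0.22 to 0.08), -0.14 with PAM (-0.30 to 0.0078) and 0.08 between the ligands (-0.08 to 0.23).

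For Ass1 the array holds 2 probes that the annotation gives to both Ass1 and Gm5424, a transcribed pseudogene in RefSeq. Signal from the 2 loci cannot be told apart, so the values belong to the probes and not to either gene. The first (10363541) had values of 0.48 and 0.47 with poly I:C, -0.03 and 0.03 with PAM, and -3.33 and -3.08 in control cells. In a fit over all 28815 probes it rose by 3.68 ± 0.09 with poly I:C (adjusted p = 1.53e-07) and by 3.21 ± 0.09 with PAM (adjusted p = 5.08e-07). The second (10471154) rose by 3.63 ± 0.09 and 3.16 ± 0.09. Between the ligands both differed by 0.47, with an adjusted p of 0.0061 and 0.00823. The treated arrays of these probes thus lay far above the control arrays with either ligand, whereas those of Asl did not.

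Ornithine from arginase is used by ornithine aminotransferase, encoded by Oat, on the way to proline and glutamate, and by ornithine decarboxylase, encoded by Odc1, which starts polyamine synthesis. Oat (probe 10568568) had values of -0.90 and -1.07 with poly I:C, 0.0062 and -0.0062 with PAM, and 0.20 and 0.10 in control cells. Both poly I:C arrays lay far below the others. Oat fell by 1.13 ± 0.08 on the log2 scale with poly I:C, a 2.19-fold lower value (adjusted p = 5.56e-06). With PAM the difference was -0.15 (95% interval -0.33 to 0.03) and did not pass. Between the ligands Oat was lower with poly I:C by 1.98-fold (-0.98 ± 0.08, adjusted p = 1.30e-05).

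Odc1, the mean of probes 10394770 and 10582295, had values of 0.09 and 0.14 with poly I:C, -0.00071 and 0.0066 with PAM, and -0.25 and -0.07 in control cells. In this mean the 3 groups did not overlap, and the 2 control arrays lay further apart than those of either ligand. For probe 10394770 alone the poly I:C values (0.05 and 0.12) overlapped the PAM values (-0.05 and 0.06). Odc1 rose by 0.27 ± 0.08 with poly I:C (adjusted p = 0.0242), or 1.21-fold. That call ended without control replicate 1 (0.18, adjusted p = 0.109), without either poly I:C replicate (0.0764 and 0.136) and for the first probe on its own (0.0567). With PAM the difference was 0.16 (95% interval -0.01 to 0.33) and did not pass, nor did the ligands differ past the threshold (0.11, -0.06 to 0.29).

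**Figure D3:**
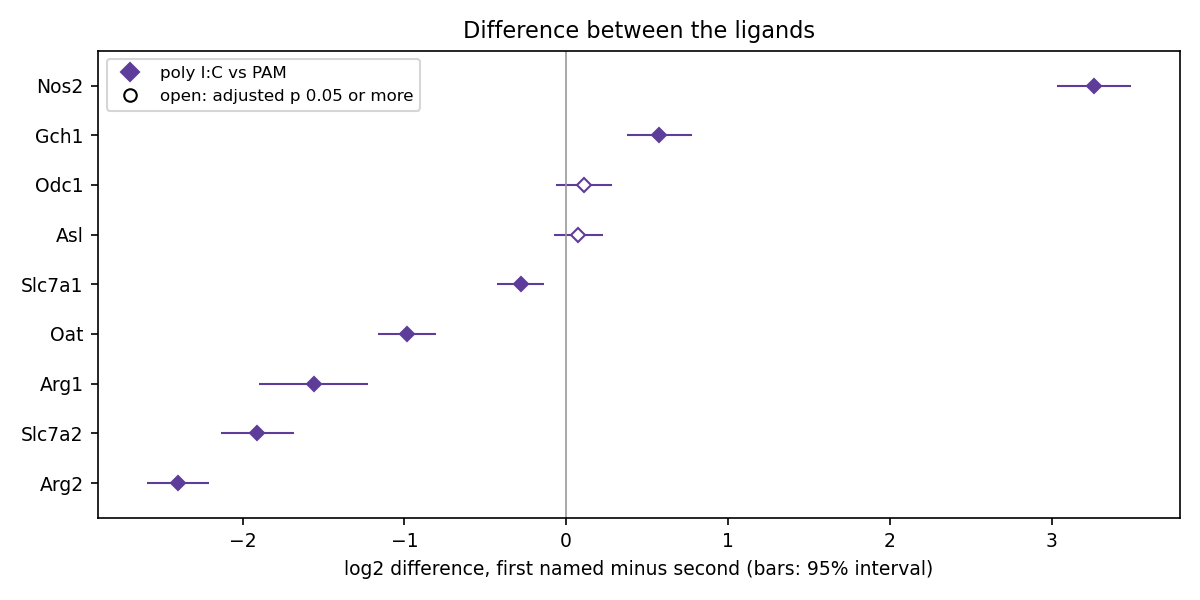
Log2 difference between poly I:C and PAM (x axis, poly I:C minus PAM, with 95% intervals) for the 9 genes, ordered by value; open symbols did not pass. Nos2 (3.26) and Gch1 (0.58) lie above 0, and Slc7a1, Oat, Arg1, Slc7a2 and Arg2 lie below it, down to -2.40.

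Other genes of the same pathways were counted from 11 lists by role, 65 genes in all, of which 57 had a single-gene probe. With poly I:C 8 of the 57 rose and 20 fell, which is 49.1%, beside 30.4% of all genes, and their median was -0.08. With PAM 9 rose and 10 fell, 33.3% beside 25.0%, with a median of 0.0021. Without PAM replicate 2 fewer of these genes passed with PAM, and the share of all genes in that refit was not counted. Between the ligands 7 of these genes stood higher and 17 lower under poly I:C, 42.1% beside 28.7% of all genes.

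In polyamine metabolism, Srm, Sat1 and Azin1 passed with both ligands, Srm and Sat1 in opposite directions. The spermidine synthase gene Srm was the single measured gene of 4 in its list. Its values were -0.50 and -0.63 with poly I:C, 0.43 and 0.55 with PAM, and -0.05 and 0.05 in control cells. The control arrays thus lay between those of the ligands. Srm fell by 0.56 ± 0.08 with poly I:C (adjusted p = 0.000582) and rose by 0.49 ± 0.08 with PAM (adjusted p = 0.00172). Sat1, whose product acetylates spermidine and spermine for export or breakdown, had values of 0.31 and 0.42 with poly I:C, -0.90 and -1.01 with PAM, and -0.04 and 0.04 in control cells. Its order was the reverse of that of Srm. Sat1 rose by 0.37 ± 0.07 with poly I:C (adjusted p = 0.00472) and fell by 0.95 ± 0.07 with PAM (adjusted p = 1.48e-05). Poly I:C stood 2.50-fold above PAM for Sat1 (1.32 ± 0.07, adjusted p = 1.39e-06), and 2.08-fold below it for Srm (-1.05 ± 0.08, adjusted p = 1.00e-05).

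Of 5 measured genes of polyamine acetylation, oxidation and transport, 3 rose and 2 fell with poly I:C, beside 30.4% of all genes past the threshold, and 1, Sat1, fell with PAM, 20% beside 25.0%. Smox, the spermine oxidase gene, rose by 0.66 ± 0.06 with poly I:C. Atp13a3, a gene linked to polyamine uptake, had values of -1.52 and -1.39 with poly I:C, -0.0099 and 0.02 with PAM, and 0.05 and 0.26 in control cells. It fell by 1.61 ± 0.09 with poly I:C, 3.06-fold (adjusted p = 9.82e-07), and differed by -0.15 with PAM (95% interval -0.34 to 0.04). Among 4 antizyme and antizyme inhibitor genes, which control ornithine decarboxylase protein, Azin1 fell with poly I:C (-0.44) and with PAM (-0.49), and Oaz2 fell with poly I:C (-0.55). That is 50% with poly I:C and 25% with PAM, beside 30.4% and 25.0% of all genes. Hypusine is a modification of the factor eIF5A made from spermidine by the products of Dhps and Dohh. Of these genes and the factor genes Eif5a and Eif5a2, Eif5a2 (-0.41) and Dohh (-0.38) fell with poly I:C and Dhps rose with PAM (0.29). The shares were again 50% with poly I:C and 25% with PAM.

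Transporter genes other than the 2 above gave 2 higher and 1 lower of 8 with poly I:C, a share of 37.5% near the 30.4% of all genes. With PAM 4 were higher and 2 lower, 75% beside 25.0% of all genes. Slc3a2, the heavy chain that pairs with several light chains, rose by 0.71 with poly I:C and by 0.42 with PAM, and Slc7a3, a further cationic transporter gene, by 0.67 and 0.40. Slc7a6, a light chain that exchanges arginine for neutral amino acids, had values of -0.42 and -0.40 with poly I:C, 0.55 and 0.65 with PAM, and 0.0037 and -0.0037 in control cells. The control arrays lay between the ligands here too. It fell by 0.41 ± 0.07 with poly I:C (adjusted p = 0.0012) and rose by 0.60 ± 0.07 with PAM (adjusted p = 0.000139). The related Slc7a7 rose by 0.76 ± 0.07 with PAM and differed by -0.04 with poly I:C (95% interval -0.21 to 0.12). Slc38a9, whose product senses arginine in the lysosome, fell with PAM (-0.53), as did Slc7a4 (-0.34).

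In the tetrahydrobiopterin list, where Gch1 stands at the entry, 2 of 6 other genes fell with poly I:C and 1 with PAM, shares of 33.3% and 16.7% that are near or below the 30.4% and 25.0% of all genes. Qdpr, which recycles the oxidized cofactor, fell by 0.90 ± 0.06 with poly I:C (adjusted p = 6.21e-06) and by 0.37 ± 0.06 with PAM (adjusted p = 0.00221). Pcbd2, a dehydratase of the same cycle, fell with poly I:C (-0.54). Of 9 genes of nitric oxide synthases and nitric oxide handling, Nostrin fell with both ligands (-1.18 ± 0.10 with poly I:C and -1.03 ± 0.10 with PAM), and Nosip rose with poly I:C (0.58 ± 0.06). These shares, 22.2% with poly I:C and 11.1% with PAM, were below those of all genes. Both encode proteins that bind nitric oxide synthases.

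On the ornithine side, Slc25a15, the mitochondrial ornithine carrier gene, was the single gene of 6 in the urea cycle list that passed with poly I:C (-0.50 ± 0.09), and it differed by -0.09 with PAM (95% interval -0.29 to 0.11). The shares of that list, 16.7% with poly I:C and 0% with PAM, were below the 30.4% and 25.0% of all genes. Of 4 genes between ornithine, proline and glutamate, 75% passed with each ligand, beside 30.4% and 25.0% of all genes. Aldh18a1, which makes the shared intermediate from glutamate, rose with poly I:C (0.35) and PAM (0.28). Prodh, which starts proline breakdown, fell with both (-0.63 and -0.33), Aldh4a1 fell with poly I:C (-0.46) and the reductase gene Pycrl fell with PAM (-0.23).

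**Figure D4:**
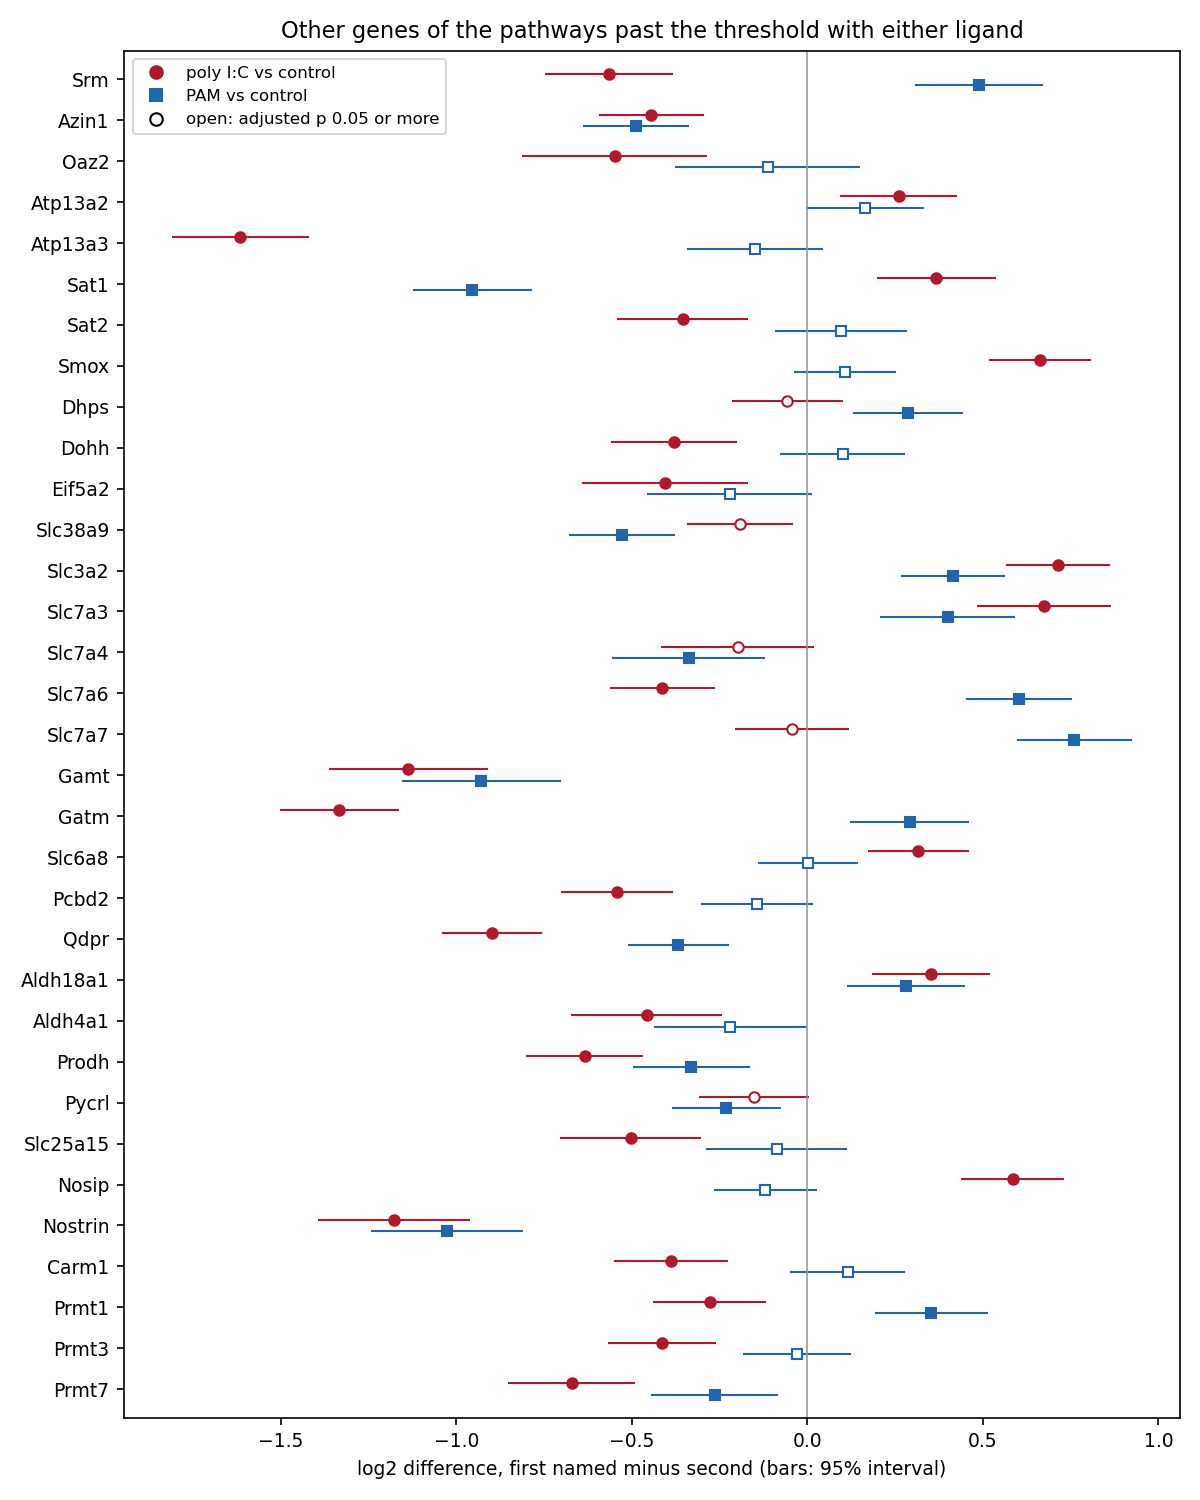
Log2 difference from control cells (x axis, with 95% intervals) of the other pathway genes that passed with either ligand, for poly I:C (red circles) and PAM (blue squares), grouped by role from polyamine synthesis at the top to arginine methyltransferases at the bottom; open symbols did not pass. Among genes past the threshold with both ligands, Srm, Slc7a6, Gatm and Prmt1 lie below 0 with poly I:C and above it with PAM. Sat1, also past it with both, lies above 0 with poly I:C (0.37) and below it with PAM (-0.95).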

How the data were processed

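Total RNA of 6 macrophage cultures was labelled as biotinylated cRNA by a standard Affymetrix procedure, per the labels' protocols. The authors deposited log values for 28815 probes, taken here as log2, centred so that every probe has a median of 0 (within 5e-07). How probes were summarized and normalized is not stated in the sources used here. All values were used as deposited, with no filter.

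The platform annotation gave 21780 probes 1 symbol, 1605 several and 5430 none; 21689 of the first were found in RefSeq by Entrez identifier. Probes with several symbols stayed out of gene counts. One mean per group was fitted over 6 arrays with limma 3.58.1 in R 4.3.3 (lmFit, eBayes without trend, 3 residual and 5.68 prior degrees of freedom), with Benjamini-Hochberg adjustment over 19935 genes in each of 3 comparisons. The number of arrays limits the precision (median standard error 0.075). The fit was also run on simulated data with independent noise and shifts in the poly I:C group only. Such data cannot show how the replicates of this series relate. Motifs and figures used Python 3.11.15 and matplotlib 3.10.9.

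Genes and lists were chosen with earlier results of these data known. Named pathway genes were up to 2 per list, comparison and direction with the largest difference past the threshold, and those set beside them for the other ligand. Markers were named up to 2 per list, with Padi4 and further macrophage markers added after their values were seen. The 3 nearest genes were taken for Nos2, Arg1, Arg2 and Gch1; Ass1 had no value of its own. Protein sequences were not used here. Alternatives were array centring, variance trend, robust fitting, only the 4 arrays compared, a replicate block, single probes, fold minimums and leaving out each array.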

Additional observations from a re-analysis of the deposited data

How the results depend on the processing

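Across 303 refits of the 27 differences of the 9 genes (array centring, variance trend, robust fitting, only the arrays compared, replicate block, single probes, and without each array), 290 kept direction and side of the threshold, 7 lost a call, 6 gained one and 0 turned. These refits are not all separate checks. Leaving out an array of the group not compared gave the same numbers as the fit with only the arrays compared. Such repeats are among the gains of Arg1. The 7 losses were those of Odc1 with poly I:C and Slc7a1 between the ligands, and the 6 gains were those of Arg1 with poly I:C and Odc1 with PAM (without control replicate 2, 0.25, adjusted p = 0.0495). Without each array in turn, the genes past the threshold numbered 6 to 8 with poly I:C, 6 to 7 with PAM and 6 to 7 between the ligands. Counts moved by over 1.5 times mainly under fold minimums. At least 2-fold changes were 4 of the 9 genes with poly I:C and 4 between the ligands. For the 57 other pathway genes, at least 1.5-fold changes numbered 10 with poly I:C, 5 with PAM and 8 between the ligands. The share of all genes at 1.5-fold was not counted, so these counts have no comparison. At least 2-fold changes numbered 4 (0 up) with poly I:C, 1 (0 up) with PAM and 5 (1 up) between the ligands. Among all genes, 2.77% passed upward by 2-fold or more and 2.05% downward with poly I:C. Such shares came to 2.27% and 1.94% with PAM, and to 2.59% and 2.38% between the ligands. Counts of the other pathway genes changed when single arrays were left out, most with PAM and without PAM replicate 2. Shares of all genes in refits without an array were not counted, and the cause was not tested.

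The labels do not say whether the replicate numbers pair the samples. Differences between replicates 1 and 2 correlated across genes at -0.0101 (poly I:C and PAM), -0.0727 (poly I:C and control) and 0.155 (PAM and control). These values alone cannot show whether arrays with the same number share a source. With the replicate number as a block, 8 of the 9 genes passed with poly I:C, the added one being Arg1 (-0.37, adjusted p = 0.0465), 6 with PAM and 7 between the ligands; other pathway genes numbered 28, 18 and 24. Each group holds 2 arrays, and signal over background is unknown for every probe.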

Other observations

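Arginine is also drawn on by creatine synthesis and by protein methylation. Gatm, which transfers the amidino group of arginine to glycine in the first step of creatine synthesis, had values of -1.41 and -1.26 with poly I:C, 0.32 and 0.26 with PAM, and 0.04 and -0.04 in control cells. It fell by 1.33 ± 0.07 with poly I:C, 2.52-fold (limma adjusted p = 1.38e-06), and rose by 0.29 ± 0.07 with PAM (adjusted p = 0.0189). Gamt, the second enzyme of the pathway, had values of -0.24 and -0.18 with poly I:C, -0.06 and 0.06 with PAM, and 0.78 and 1.08 in control cells, and fell with both ligands (-1.14 ± 0.10 and -0.93 ± 0.10). Slc6a8, the creatine transporter gene, rose with poly I:C (0.32 ± 0.06).

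Of 7 arginine methyltransferase genes 4 fell with poly I:C, 57.1% beside 30.4% of all genes past the threshold (18.2% lower). Among them were Prmt7 (-0.67 ± 0.08), Prmt3 (-0.41 ± 0.07) and Prmt1 (-0.28 ± 0.07, adjusted p = 0.0150). With PAM Prmt1 rose (0.35 ± 0.07, adjusted p = 0.00533) and Prmt7 fell (-0.26 ± 0.08), 28.6% beside 25.0% of all genes. Between the ligands 4 of the 7 were lower with poly I:C, 57.1% beside 28.7% of all genes, led by Prmt1 (-0.63 ± 0.07, adjusted p = 0.000126) and Carm1 (-0.50 ± 0.07).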
